A study of Mus musculus with 6 samples.

Results

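Cholesterol synthesis and its control by SREBP were followed in injured and sham-operated mouse spinal cord through 26 genes. The members were taken by gene name: 19 enzymes of the mevalonate and sterol branches, 5 genes of SREBP control, the sterol carrier Stard4 and the sterol hydroxylase Cyp46a1. Each of the 26 had exactly 1 row among the 36629 genes of the files, and all 26 passed the filter on low values (at least 1 FPKM in at least 3 libraries), as did 17435 genes in all. Other genes of sterol and fatty acid metabolism are given afterwards as lists.

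The study compared C57/BL6 mice aged 3 to 5 weeks with a thoracic laminectomy alone (sham, labelled untreated, 3 libraries) with mice whose exposed cord was also crushed with a vascular clip of 60 g force for 5 seconds (SCI, spinal cord injury, 3 libraries). The labels name no transgene, no sex, and no agent besides the anaesthetic pentobarbital, which all animals had. Thoracic cord around the lesion was taken 3 days after surgery and its polyadenylated RNA was sequenced. The labels do not say how many animals a library holds, so p-values measure the spread between libraries, which may in part be technical. A level is given as FPKM, the authors' fragments per kilobase of gene scaled to the size of the library, and a change as the difference of group means of log2(FPKM + 1), injured less sham. The sign ± gives the SD over the 3 libraries of a group. In pieces of whole tissue, fewer cells of a type and less RNA per cell cannot be told apart.

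Cholesterol is built from acetyl-CoA by way of mevalonate, the isoprenoid pyrophosphates, squalene and lanosterol. SREBP-2, made by Srebf2, switches on nearly every gene of this path when membrane sterol runs low. Its precursor is escorted from the endoplasmic reticulum by Scap and held there by Insig1 or Insig2 when sterol is plentiful. The nervous system makes its own cholesterol, since lipoproteins of the blood do not cross into it. Most of that cholesterol lies in myelin, and oligodendrocytes and astrocytes are major makers.

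Most of the cholesterol genes followed were lower in the injured cord, mostly by modest amounts. At least 1 enzyme fell in each of the early mevalonate, isoprenoid, squalene and sterol steps, while 6 of the 19 enzymes did not pass. Of the 26 members 17 fell, 1 rose (Ebp) and 8 did not pass (limma, adjusted p under 0.05 over all genes tested). That is 65.4% of the members called lower, beside 30.8% of all genes tested, and 1 called higher, where 26.7% of all genes were. The median change of the members was −0.43 on the log2 scale, against −0.076 over all genes tested, and single members ranged from −1.17 (Cyp46a1) to 0.42 (Ebp). For 18 of the 26 (69.2%) every SCI library lay below every sham library, beside 36.9% of all genes tested. The summed level of the 19 enzymes was 963, 975 and 1025 FPKM in sham replicates 1, 2 and 3 and 826, 625 and 794 FPKM in SCI replicates 1, 2 and 3, so the injured cord held 75.8% of the sham sum. The number that fell was 17 without SCI replicate 2 and dropped to 12 without sham replicate 3, the lowest among the fits that left out a library.

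**Figure D1:**
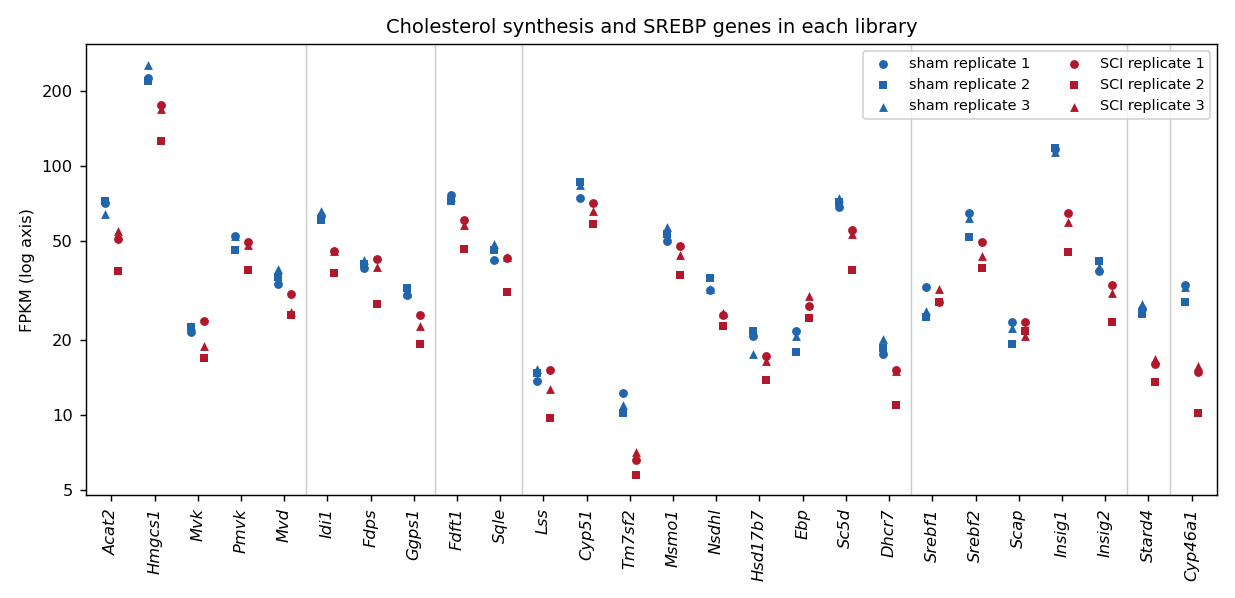
FPKM of each member in each library on a log axis, in pathway order (early mevalonate, isoprenoid, squalene, sterol, SREBP control, transport, removal; grey lines part the steps). Blue marks are sham and red marks SCI libraries, with 1 shape per replicate number. For 18 members all red marks lie below all blue ones, and for Ebp all lie above.

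Of the 5 enzymes from acetyl-CoA to isopentenyl pyrophosphate 3 fell (60.0%, beside 30.8% of all genes tested). The entry steps had the largest falls of these. Hmgcs1, which makes HMG-CoA, was the most abundant enzyme. It stood at 225, 218 and 255 FPKM in sham replicates 1, 2 and 3 and at 176, 126 and 169 FPKM in SCI replicates 1, 2 and 3. The highest SCI library was well under the lowest sham library, and the change was −0.58 (SE 0.14, limma adjusted p = 0.0099). Acat2, the cytosolic thiolase that joins acetyl-CoA units, went from 71.1, 72.0 and 64.0 FPKM to 50.7, 37.8 and 54.5 FPKM, again with no overlap (−0.54, SE 0.14, limma adjusted p = 0.013). Acat2 has a close copy beside it, Acat3, with which reads could be shared. Acat3 had a change of 0.46 that did not pass (limma adjusted p = 0.062), at 8.53 ± 2.15 FPKM in sham and 12.0 ± 1.51 FPKM in SCI libraries (SD, n = 3).

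The mevalonate kinases did not pass. Mvk, which adds the first phosphate, was at 21.4, 22.5 and 22.7 FPKM in the sham group, and in the SCI group at 23.9, 16.9 and 18.8 FPKM in SCI libraries, so its groups overlapped (−0.16, 95% interval −0.46 to 0.13). It did pass without SCI replicate 1, at −0.30. Pmvk, the next kinase, was at 52.0, 45.8 and 52.1 FPKM in the sham group, and in the SCI group at 49.2, 37.9 and 47.8 FPKM, with overlap (−0.15, interval −0.43 to 0.12). Mvd, the decarboxylase that yields isopentenyl pyrophosphate, went from 33.6, 35.6 and 38.5 FPKM to 30.6, 25.2 and 25.8 FPKM (−0.39, SE 0.099, limma adjusted p = 0.012). The call on Mvd ended without sham replicate 3 (−0.34, limma adjusted p = 0.052).

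Of the isoprenoid enzymes, Idi1 and Ggps1 fell and Fdps did not pass. Idi1, the isomerase that gives the allylic isoprenoid unit, was at 62.8, 60.8 and 65.8 FPKM in the sham group, and in the SCI group at 45.6, 37.2 and 45.6 FPKM in SCI libraries (−0.56, SE 0.098, limma adjusted p = 0.0026). Ggps1, which makes the geranylgeranyl group used to anchor small GTPases, went from 31.1 ± 1.13 to 22.4 ± 2.97 FPKM with no overlap (−0.47, SE 0.11, limma adjusted p = 0.0076). Fdps, the farnesyl pyrophosphate synthase at the branch point, was at 38.8, 40.2 and 42.0 FPKM in the sham group, and in the SCI group at 42.4, 27.8 and 39.3 FPKM in SCI libraries. SCI replicate 1 was the highest of all 6 libraries for Fdps and SCI replicate 2 the lowest by far, and the change of −0.16 (interval −0.52 to 0.19) became 0.017 without SCI replicate 2.

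At the squalene step Fdft1 fell and Sqle did not pass. Fdft1, squalene synthase, was at 75.9, 72.2 and 74.6 FPKM in the sham group, and in the SCI group at 60.4, 46.1 and 57.7 FPKM in SCI libraries (−0.44, SE 0.11, limma adjusted p = 0.011). Its gene overlaps Ctsb on the opposite strand, which was higher in SCI libraries (281 ± 5.82 FPKM in sham, 932 ± 87.2 FPKM in SCI), and the strand setting of the quantification is not given in the sources used here. Sqle, the epoxidase that opens the sterol branch, was at 41.7, 45.9 and 48.3 FPKM in the sham group, and in the SCI group at 42.7, 31.1 and 43.0 FPKM in SCI libraries. Its groups overlapped and its change of −0.23 (interval −0.54 to 0.093) did not pass.

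In the sterol branch 6 of 9 enzymes fell (66.7%, beside 30.8% of all genes tested), and Ebp rose. Tm7sf2, a reductase of the lanosterol demethylation product, fell most among all 19 enzymes, from 12.2, 10.2 and 10.95 FPKM to 6.58, 5.72 and 7.06 FPKM (−0.70, SE 0.11, limma adjusted p = 0.0016). Every SCI value was below every sham value. Tm7sf2 overlaps Vps51 on the same strand, which went from 19.03, 19.40 and 18.69 FPKM to 14.6, 12.9 and 15.8 FPKM (−0.38), so reads could be shared between them. Sc5d, the desaturase near the end of the path, went from 68.2, 71.7 and 73.9 FPKM to 55.0, 37.9 and 53.0 FPKM (−0.56, SE 0.14, limma adjusted p = 0.012). Nsdhl, a dehydrogenase that acts in removal of the methyl groups of lanosterol, went from 31.8, 35.5 and 32.1 FPKM to 25.1, 22.7 and 25.5 FPKM (−0.42, SE 0.084, limma adjusted p = 0.0043). Both kept groups that did not overlap.

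Calls on the remaining sterol enzymes were less firm. Dhcr7, the last reductase before cholesterol, went from 18.7 ± 1.33 to 13.7 ± 2.37 FPKM (−0.44, limma adjusted p = 0.025). Its call ended without sham replicate 2 (−0.45) or 3 (−0.39) and with no filter on low values (limma adjusted p = 0.053). Cyp51, the lanosterol demethylase, went from 81.3 ± 6.23 to 65.0 ± 6.44 FPKM (−0.32, limma adjusted p = 0.027). That call ended with sham replicate 2 (−0.28), sham replicate 3 (−0.30) or SCI replicate 3 left out (−0.33), with the replicate number as a block (adjusted p = 0.064) and under median-ratio scaling between libraries (−0.23, limma adjusted p = 0.051). Msmo1, the methyl oxidase of the demethylation complex, went from 53.3 ± 3.59 to 42.5 ± 5.61 FPKM (−0.33, limma adjusted p = 0.038).

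The call on Msmo1 ended in 7 of 13 alternatives. It ended without sham replicate 1 (−0.37), 2 (−0.33) or 3 (−0.28), without SCI replicate 3 (−0.35), with the replicate block (adjusted p = 0.059), with no filter and with no mean-variance trend, and the change was −0.22 without SCI replicate 2. Hsd17b7, the ketoreductase of the same complex, narrowly missed the threshold although its groups did not overlap. It was at 20.6, 21.6 and 17.5 FPKM in the sham group, and in the SCI group at 17.2, 13.8 and 16.5 FPKM in SCI libraries (−0.31, limma adjusted p = 0.053), and it passed without sham replicate 3 (−0.40), under quantile normalization and with haemoglobin and mitochondrial genes removed. Lss, which closes squalene epoxide into lanosterol, was at 13.6, 14.7 and 15.3 FPKM in the sham group, and in the SCI group at 15.1, 9.66 and 12.6 FPKM in SCI libraries. The groups overlapped for Lss (−0.23, interval −0.58 to 0.13).

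Ebp, the isomerase that moves a double bond in the sterol ring just before the Sc5d step, went the other way. It stood at 21.8, 17.8 and 20.8 FPKM in sham replicates 1, 2 and 3 and at 27.3, 24.5 and 30.0 FPKM in SCI replicates 1, 2 and 3. All SCI libraries were above all sham libraries, and Ebp was the only member called higher (0.42, SE 0.11, limma adjusted p = 0.014), in all 13 alternatives. Measured within a library, the ratio of Ebp to Sc5d FPKM was 0.319, 0.248 and 0.281 in sham and 0.495, 0.645 and 0.565 in SCI libraries. The log2 ratio differed by 1.01 between the groups (two-sided exact permutation p = 0.10, the smallest this test can give). Ebp rose and Sc5d fell, each without overlap, so their ratio had to separate the groups.

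**Figure D2:**
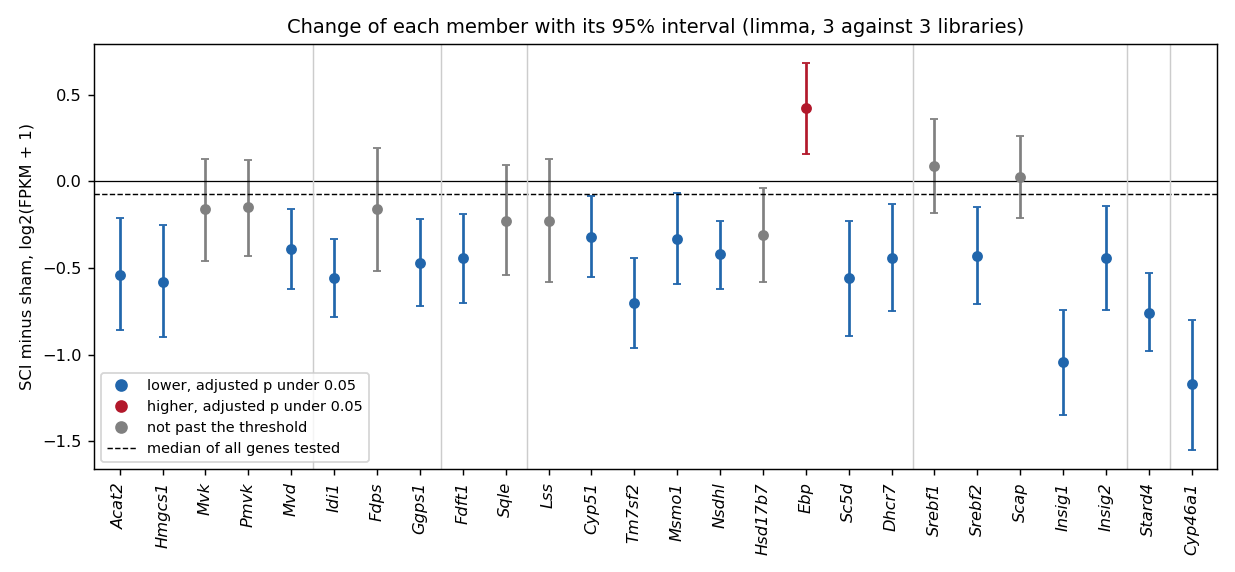
Change of each member, SCI minus sham on log2(FPKM + 1), with limma's 95% interval. Blue points are members called lower, the red point is Ebp, grey points did not pass, and the dashed line is the median of all genes tested (−0.076). Cyp46a1 (−1.17) and Insig1 (−1.04) lie lowest.

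Among the genes of SREBP control, Insig1 fell by far the most. Insig1, which holds the Scap and SREBP complex in the endoplasmic reticulum and is itself a classical SREBP target, was at 116, 118 and 114 FPKM in the sham group, and in the SCI group at 64.4, 45.0 and 59.7 FPKM in SCI libraries. The sham libraries lay within a few FPKM of each other and the SCI libraries reached 48.6% of them on average (−1.04, SE 0.13, limma adjusted p = 0.00063). Insig2, the paralog that is less dependent on SREBP, went from 37.8, 41.5 and 39.2 FPKM to 33.1, 23.6 and 30.7 FPKM (−0.44, SE 0.13, limma adjusted p = 0.021). The call on Insig2 ended without sham replicate 2 (−0.41) or sham replicate 3 (−0.44). Insig1 held 3.08, 2.85 and 2.90 times the FPKM of Insig2 in sham libraries and 1.95, 1.91 and 1.94 times in SCI libraries. That ratio separated the groups (difference of −0.60 in log2, two-sided exact permutation p = 0.10).

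Of the transcription factors Srebf2 fell and Srebf1 did not pass. Srebf2, the factor of the sterol genes, was at 64.6, 51.7 and 61.9 FPKM in the sham group, and in the SCI group at 49.6, 38.8 and 43.3 FPKM in SCI libraries (−0.43, SE 0.12, limma adjusted p = 0.019). Its call ended without sham replicate 1 (−0.37) or sham replicate 3 (−0.40). Srebf1, whose product favours fatty acid genes, was at 32.7, 24.8 and 26.1 FPKM in the sham group, and in the SCI group at 28.3, 28.4 and 31.9 FPKM in SCI libraries. Its groups overlapped and the change of 0.09 (interval −0.18 to 0.36) did not pass. The ratio of Srebf2 to Srebf1 was 1.98, 2.09 and 2.37 in sham and 1.75, 1.37 and 1.36 in SCI libraries (difference of −0.53 in log2, two-sided exact permutation p = 0.10). Scap was at 21.7 ± 2.26 FPKM in sham and 22.1 ± 1.44 FPKM in SCI libraries. Its change of 0.027 (interval −0.21 to 0.26) did not pass and turned to −0.055 without sham replicate 2 and −0.021 without SCI replicate 1.

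Stard4 and Cyp46a1, which lie outside the synthesis path, both fell. Stard4, a soluble carrier that moves cholesterol between membranes and is also under SREBP-2, was at 26.7, 25.3 and 27.8 FPKM in the sham group, and in the SCI group at 15.9, 13.5 and 16.7 FPKM in SCI libraries (−0.76, SE 0.097, limma adjusted p = 0.00069). That is close to the fall of Tm7sf2 (57.8% of the sham mean against 58.2%), and under quantile normalization Tm7sf2 had the larger change (−0.79 against −0.77). Cyp46a1, the neuronal hydroxylase that makes cholesterol exportable from the nervous system, was at 33.2, 28.3 and 32.7 FPKM in the sham group, and in the SCI group at 14.9, 10.1 and 15.7 FPKM in SCI libraries (−1.17, SE 0.16, limma adjusted p = 0.00094). Both genes separated the groups with a wide gap. Cyp46a1 was set beside the 8 neuron markers of a list (Snap25, Syt1, Rbfox3, Stmn2, Nefl, Nefm, Syp and Eno2), all of which fell, with a median change of −1.15. The log2 ratio of Cyp46a1 to the mean of these markers was −3.12, −3.43 and −3.12 in sham and −3.21, −3.16 and −3.32 in SCI libraries, with overlap and a difference of −0.0059 (two-sided exact permutation p = 1.0). Relative to the mean of those markers, Cyp46a1 showed no difference larger than the spread between libraries. Single markers changed by −0.65 (Stmn2) to −1.64 (Nefm), so the result holds for their mean and not for each marker. The part of neurons in the fall of Cyp46a1 was not tested.

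**Figure D3:**
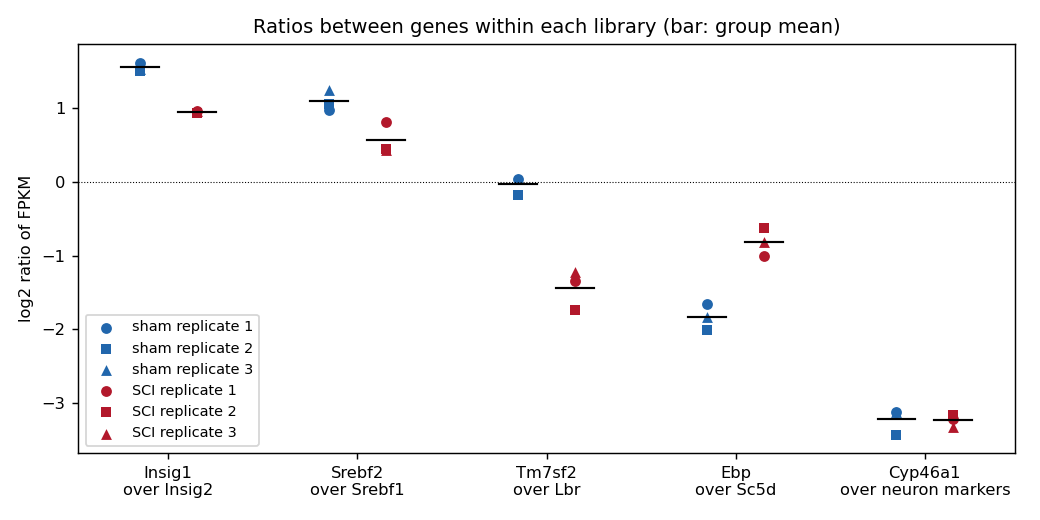
The log2 ratio of FPKM between 2 genes in each library, or between Cyp46a1 and the mean log2 FPKM of 8 neuron markers. Blue marks are sham, red marks SCI, and bars are group means. The groups are apart for the first 4 ratios and overlap for Cyp46a1.

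Another reductase of the lanosterol demethylation product, Lbr, which is also a protein of the nuclear envelope, rose while Tm7sf2 fell. Lbr was at 11.8, 11.5 and 10.6 FPKM in the sham group, and in the SCI group at 16.7, 19.1 and 16.5 FPKM in SCI libraries (0.58, limma adjusted p = 0.0017). The ratio of Tm7sf2 to Lbr was 1.03, 0.882 and 1.03 in sham and 0.395, 0.299 and 0.428 in SCI libraries, a difference of −1.41 in log2 (two-sided exact permutation p = 0.10). Tm7sf2 and Lbr also changed in opposite directions without overlap, so this ratio had to separate the groups too. Together with Cyp46a1 against neuron markers, 5 such ratios were computed after the values were seen. With 3 against 3 libraries the smallest p such a test can give is 0.10, and adjusted over the 5 (Benjamini-Hochberg) the exact permutation p was 0.125 for each of the 4 that separated.

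The injured libraries were not alike. SCI replicate 2 was the lowest SCI library for 24 of the 26 members and for all 19 enzymes, beside 56.0% of all genes tested and 84.8% of all genes called lower. The median of the members against the sham mean was −0.25, −0.57 and −0.34 in SCI replicates 1, 2 and 3. Haemoglobin genes took 0.656%, 6.16% and 0.211% of the FPKM in these libraries and 0.109% to 0.126% in sham libraries. With haemoglobin and mitochondrial genes removed and the libraries rescaled, SCI replicate 2 was still lowest for 23 of the 26, and 18 members were called lower.

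Markers of several cell types differed between the same libraries. Of 10 oligodendrocyte markers 7 fell and Cldn11 rose (median change −0.56), with a summed level of 7912 to 8570 FPKM in sham and 4810 to 6271 FPKM in SCI libraries. Their median against the sham mean was −0.37, −1.05 and −0.45 in SCI replicates 1, 2 and 3. The same medians were −0.53, −0.38 and −0.34 for the astrocyte list, −0.94, −1.59 and −0.92 for the neuron list and −0.025, −0.15 and −0.042 over all genes tested, so SCI replicate 2 was lowest for all of these but the astrocyte list. Of 8 astrocyte markers 5 fell and 3 rose (1674 to 1924 FPKM in sham, 1149 to 1324 FPKM in SCI). All 8 neuron markers fell, from 3947 to 4581 FPKM in sham to 1218 to 2036 FPKM in SCI libraries. All 8 microglia and macrophage markers rose, from 187 to 232 FPKM to 1393 to 2248 FPKM. No marker of these 4 lists was at 0 in a library, and their part in the fall of the members was not tested.

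**Figure D4:**
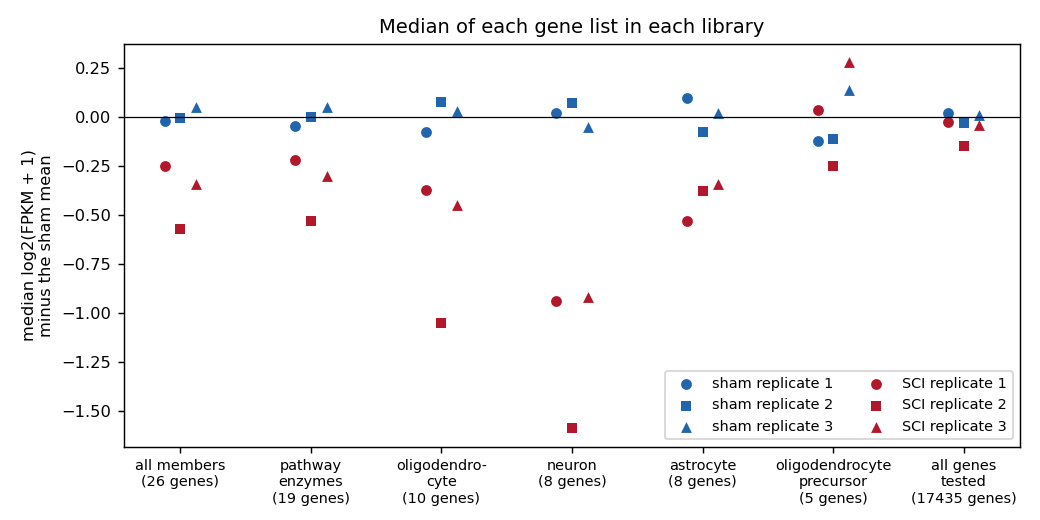
Median difference from the sham mean on log2(FPKM + 1), per library, for the members, the enzymes, 4 marker lists and all genes tested. SCI replicate 2 (red square) is the lowest mark for the members (−0.57), oligodendrocyte (−1.05) and neuron (−1.59) lists.

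Other cell types in the pieces also differed. Of 8 markers of Schwann cells and sensory ganglia, 5 were tested and 4 fell. Their summed level was 1651, 636 and 1685 FPKM in sham replicates 1, 2 and 3 and 139, 323 and 249 FPKM in SCI replicates 1, 2 and 3, and Scn10a was listed at 0 in every library but SCI replicate 3. The lowest sham library of a member was sham replicate 1 for 12 members, 2 for 11 and 3 for 3. Muscle markers summed to 18.0 to 110 FPKM in sham and to 45.7, 11.4 and 434 FPKM in SCI replicates 1, 2 and 3. Of oligodendrocyte precursor markers 2 of 5 rose (Pdgfra and Cspg4) and none fell. All 6 endothelial markers rose (96.3 to 106 FPKM in sham, 236 to 277 FPKM in SCI), as did 3 of 4 red cell genes, all 5 tested of 6 fibroblast and meningeal genes, and all 5 proliferation genes. The part of these cells in the fall of the members was not tested. Without sham replicate 2, 13 members were called lower and 1 higher, and without SCI replicate 3, 15 and 1.

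CCAAT boxes were found in the promoters of most members searched. NF-Y, a factor that binds the CCAAT box, is known to act beside SREBP at sterol genes. Since the members are sterol genes, a high share among them was likely in advance. RefSeq windows of 300 bases (250 before to 50 after a start, GRCm38.p6) were found for 22 of the 26 members. Fdps, Fdft1, Sqle and Stard4 had no window and were not searched for either motif. CCAAT on either strand was in a window of 20 of the 22 (90.9%), beside 41.1% of all 27025 genes with a window and 42.8% of the 11873 that were also tested for expression. Members had more windows per gene, 30 for 22 genes against 32851 for 27025, and counted by window the shares were 70.0% and 37.4%. For 23 of the 30 member windows the bases just after the start were found near the start of a GENCODE M21 transcript of the gene. Acat2 and Scap were the members with a window and no match. The SREBP element, searched as TCACNCCAC on either strand, was in 1 of the 22 (Hmgcs1), beside 1.44% of all genes. SREBP also binds other letters, and no match says only that these are not in the window. A match is a description of letters and not a bound site.

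Stretches upstream of the start are shown for Cyp46a1 and Insig1, the largest falls with a window, and for Ebp, the member that rose. Hmgcs1 is shown because it was the member with an SREBP element, not for its fall. The stretch of Tm7sf2, the next largest fall with a window, overlapped an annotated exon and is not shown. All are written 5′ to 3′ on the strand of the gene. Capitals mark CCAAT, which reads ATTGG on the other strand, and in Hmgcs1 also the SREBP element. On GRCm38 the Cyp46a1 stretch is chr12:108334138-108334192 (plus strand), that of Insig1 chr5:28071171-28071225 (plus strand), that of Hmgcs1 chr13:119690101-119690335 (plus strand) and that of Ebp chrX:8193538-8193707 (minus strand).
Cyp46a1: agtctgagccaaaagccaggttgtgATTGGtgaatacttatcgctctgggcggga
Insig1: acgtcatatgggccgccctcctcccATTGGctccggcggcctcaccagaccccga
Hmgcs1: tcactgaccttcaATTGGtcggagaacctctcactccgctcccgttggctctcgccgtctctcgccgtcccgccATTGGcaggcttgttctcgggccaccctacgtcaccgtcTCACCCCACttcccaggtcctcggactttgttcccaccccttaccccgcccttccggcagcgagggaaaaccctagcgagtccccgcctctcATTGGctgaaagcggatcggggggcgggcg
Ebp: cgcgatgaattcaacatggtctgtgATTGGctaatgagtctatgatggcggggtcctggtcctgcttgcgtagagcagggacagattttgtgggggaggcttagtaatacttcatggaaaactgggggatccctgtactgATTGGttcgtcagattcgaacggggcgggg

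The Hmgcs1 stretch held 3 CCAAT boxes and 1 SREBP element, that of Ebp 2 boxes, and those of Insig1 and Cyp46a1 1 each. The box was thus found in a member that rose as well as in members that fell, and in members that did not pass, such as Mvk, whose window held 5. In the files, on GRCm38, Insig1 spans bases 28071363 to 28078662 of chromosome 5 (plus strand), Cyp46a1 bases 108334381 to 108362234 of chromosome 12 (plus strand), Hmgcs1 bases 119690379 to 119708260 of chromosome 13 (plus strand) and Ebp bases 8185329 to 8193512 of chromosome X (minus strand). FPKM are totals over each gene.

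The other genes of the pathway, 78 genes found in 7 lists, were called higher in 20 cases and lower in 25, shares near the 26.7% and 30.8% of all genes tested. Of 8 genes that supply or use acetyl-CoA units 4 fell and 1 rose (median change −0.24). Acly, which makes cytosolic acetyl-CoA from citrate, went from 193, 207 and 186 FPKM to 114, 94.6 and 137 FPKM (−0.77, limma adjusted p = 0.0024). Acss2, which makes it from acetate, fell by 0.81. Among 14 fatty acid genes under SREBP-1, 8 fell and 2 rose, with a median change of −0.41. Thrsp, a lipogenic regulator, fell by 1.35, Pnpla3, a lipid hydrolase, by 1.01, and Scd2, the abundant stearoyl-CoA desaturase of the nervous system, by 0.46 (1334 ± 54.0 to 978 ± 134 FPKM). The call on Scd2 ended without sham replicate 3 (−0.43) and with no filter (limma adjusted p = 0.069), and its change was −0.71 under quantile normalization.

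No gene of the SREBP processing and sterol-sensing degradation list fell. Of 14 genes 7 rose and 7 did not pass, where 26.7% of all genes tested were called higher and 30.8% lower. Sec24d, a coat protein of vesicles that leave the endoplasmic reticulum, went from 5.22, 4.75 and 5.52 FPKM to 16.6, 20.0 and 12.8 FPKM (1.49, limma adjusted p = 3.0e-04). Erlin1, a membrane protein of the endoplasmic reticulum that restrains SREBP, rose by 0.81 with groups of 6.46 to 8.15 FPKM and 12.9 to 14.1 FPKM. The proteases that cut SREBP did not pass, with changes of 0.034 for Mbtps1 and −0.18 for Mbtps2.

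Electron donors and partners of the sterol enzymes were mixed, with 4 of 9 higher and 2 lower. Of all genes tested 26.7% were called higher and 30.8% lower. Cyb5r3, a cytochrome b5 reductase, went from 45.7, 43.7 and 45.0 FPKM to 111, 117 and 109 FPKM (1.31, limma adjusted p = 1.7e-05). Por, which feeds electrons to Cyp51 and Sqle, rose by 0.70. Pgrmc1, a haem-binding partner of Cyp51, went from 182 ± 16.1 to 130 ± 21.4 FPKM (−0.49), a call that ended without sham replicate 1 (−0.45) or sham replicate 3 (−0.46). Of 16 genes that use isoprenoids 3 were higher and 5 lower, the latter near the share of all genes tested (30.8%). Zmpste24, the protease that matures prenylated lamin A, rose by 0.64, Dhdds, a subunit of the dolichol synthase, fell by 0.64, and Fnta, the shared subunit of prenyl transferases, fell by 0.49.

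Genes of sterol hydroxylation went both ways. Of 8 genes 2 rose and 4 fell. Ch25h, the inducible enzyme that makes an antiviral oxysterol in macrophages, was at 6.69, 1.75 and 1.77 FPKM in the sham group, and in the SCI group at 15.5, 13.9 and 26.2 FPKM in SCI libraries (2.28, limma adjusted p = 0.0034). Its sham libraries were uneven, yet all SCI libraries were above them. Hsd3b7, which acts on hydroxylated sterols in bile acid synthesis, rose by 1.39, and Cyp27a1, the mitochondrial sterol hydroxylase, went from 48.3 ± 2.59 to 26.4 ± 4.31 FPKM (−0.86, limma adjusted p = 0.0011). Of 9 carriers and esterification genes 1 rose and 2 fell, both below the shares of all genes tested (26.7% and 30.8%). Soat1, which esterifies cholesterol for storage, went from 9.96, 9.89 and 10.8 FPKM to 17.6, 23.96 and 19.03 FPKM (0.91, limma adjusted p = 8.2e-04). Osbpl2, an oxysterol-binding protein, fell by 0.64, while Gramd1a, a sterol transporter at membrane contacts, did not pass (−0.036), and its change turned to 0.054 under median-ratio scaling, 0.016 without sham replicate 1 and 0.0068 without SCI replicate 2.

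**Figure D5:**
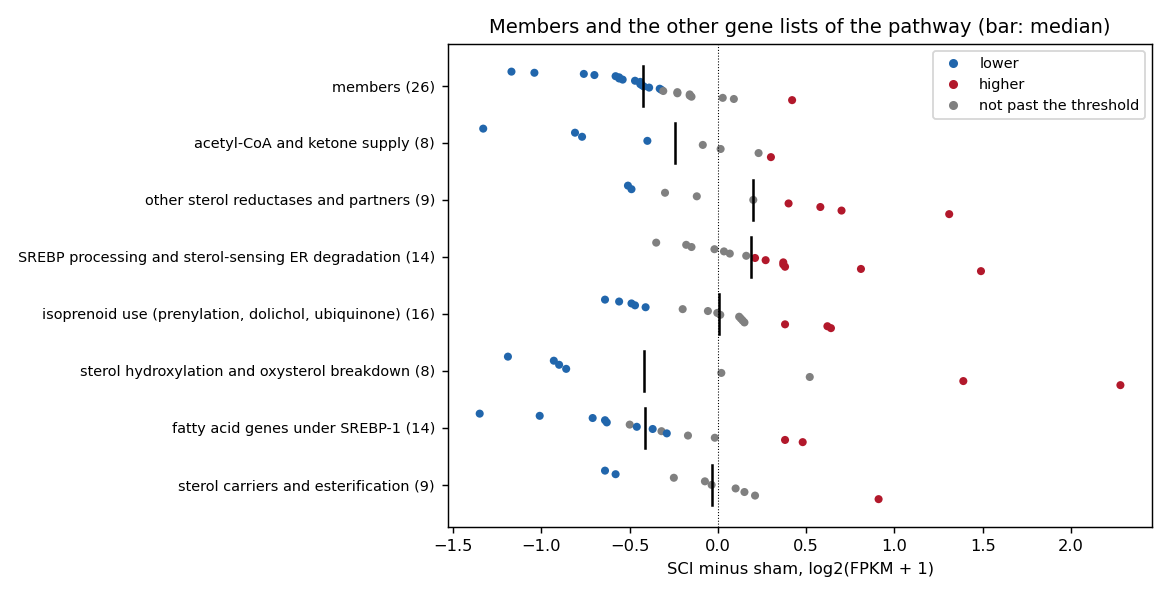
Change of each tested gene, SCI minus sham on log2(FPKM + 1), for the members and 7 other lists, with the number of genes in brackets and bars at the medians. Blue points are lower, red points higher and grey points not past the threshold. The SREBP processing list has no blue point, and the members have 17.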

How the data were processed

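The files hold FPKM, a normalized level per gene and library that the authors deposited with 2 decimals. Strand-marked (dUTP), poly(A)-selected libraries with molecular identifiers were made, per the labels' protocols. Among the tools in the submitters' processing notes are the aligner HISAT2 2.0.4 and the assembler StringTie 1.3.4d, and the build mm9 is listed there too. Gene positions are nevertheless on GRCm38, where 91.7% of 36502 shared genes have the start and end of GENCODE M21. How strand and molecular identifiers were handled is not given in the sources used here. FPKM hold no read counts, so depth is unknown and no counting interval is given. The FPKM of a library summed to between 716215 and 734791.

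SCI and sham libraries were compared by limma 3.58.1 (R 4.3.3) on log2(FPKM + 1), allowing a trend of variance with level. A gene entered when 3 or more libraries reached 1 FPKM. P-values were adjusted over all 17435 genes (Benjamini-Hochberg, threshold 0.05), and ± gives the SD. The log2(FPKM + 1) scale understates changes of low genes. The test was tested on simulated data. The members, lists and named genes (all members; from each pathway list the 2 largest passing changes and the most abundant gene) were chosen with earlier results of these data known. Results of 2 genes that this rule picks are not reported here. Lbr, Mbtps1, Mbtps2, Acat3, Ctsb, Vps51, Cldn11, Pdgfra, Cspg4 and the gene ratios were added after their values were seen. Of 79 list genes, Faxdc2 had no row under that name. Alternatives were another pseudocount (0.1), no filter, median-ratio scaling, quantile normalization, removal of haemoglobin and mitochondrial genes, no trend, a replicate block, and leaving out each library. The replicate numbers were not used to pair libraries.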

Additional observations from a re-analysis of the deposited data

How the results depend on the processing

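Over 13 alternatives the number of members called lower ranged from 12 to 18, and 1 (Ebp) was called higher in each. Of the 18 called members, 12 kept direction and call in all 13 (Acat2, Hmgcs1, Idi1, Ggps1, Fdft1, Tm7sf2, Nsdhl, Ebp, Sc5d, Insig1, Stard4 and Cyp46a1). The other 6 (Mvd, Cyp51, Msmo1, Dhcr7, Srebf2 and Insig2) kept direction and lost the call in at least 1, and the cause was not tested. Direction turned only in members that had not passed: Fdps ranged from −0.28 to 0.017 and Scap from −0.055 to 0.087 when 1 library was left out. The median change of the members was −0.34 under median-ratio scaling, and with SCI replicate 1 or 2 left out it was −0.49 or −0.31. The median of all genes tested moved from −0.076 to 0.0043 under median-ratio scaling. Replicate numbers gave no sign of pairing: same-numbered libraries' deviations from their group means correlated at −0.0076, −0.039 and 0.022 for numbers 1, 2 and 3, and with the replicate block 15 members were called lower. The depth behind FPKM is unknown. With 50 genes changed per size among 17435, in simulated data 20% of genes changed by 0.5 were recovered, and 64% of those changed by 1. Far more genes were called in the real comparison, so those shares are not its limit.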
